A study of Mus musculus with 17 samples.

Results

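The transcripts described here are those of 8 mouse genes that carry iron into the cell, store it, export it or sense it: Tfrc, Trf, Slc11a2, Slc40a1, Fth1, Ftl1, Aco1 and Ireb2. They were selected on their gene symbols, each with 1 probe set that names it alone, out of 19938 genes measured in the same way. The choice was made with earlier results of these arrays known, Tfrc having been picked on its level over the 5 genotype groups. Differences between groups are therefore given for the 8 genes as descriptions with their errors, and no test is read from them.

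Cells take up iron mainly as iron-loaded transferrin, which binds the transferrin receptor and is drawn into endosomes, where the iron is released, reduced and carried into the cytosol. Ferritin stores the surplus, and ferroportin is the exporter of iron from animal cells. Iron regulatory proteins 1 and 2 sense cytosolic iron and bind iron-responsive elements in messenger RNAs: when iron is scarce they stabilise the transferrin receptor message and block translation of the ferritin and ferroportin messages. An array measures the RNA and not its translation. In pancreatic beta cells, mitochondrial respiration and with it insulin secretion rest on iron-sulfur proteins, and iron overload is known to harm these cells.

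RNA of pancreatic islets was measured on 17 Affymetrix whole-transcript arrays, and values are log2 intensities as deposited, so a difference of 1 is a 2-fold difference. Islets came from untreated mice of 5 genotypes, at 2 months of age as the labels give it: Men1flf Rbp2flf RIP-Cre (4 arrays, called double knockout), Men1flf RIP-Cre (3 arrays, Men1 knockout), Rbp2flf RIP-Cre (4 arrays, Rbp2 knockout), RIP-Cre (3 arrays) and wild type, labelled wt (3 arrays). RIP-Cre is Cre recombinase under the rat insulin promoter, which acts in beta cells, so the other cells of an islet keep the floxed gene. Men1 codes for menin, a tumour suppressor that works with histone H3 lysine 4 methyltransferases, and Rbp2, now Kdm5a, for a demethylase of that mark. RIP-Cre islets were the control for the knockouts, since all knockouts carry that transgene. The labels do not say whether arrays of a group are separate animals, so errors and p-values measure the spread between arrays.

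The targeted gene Men1 lay between 8.46 and 8.87 in double knockout and between 8.14 and 8.43 in Men1 knockout arrays, below its 10.05 to 10.24 in Rbp2 knockout, 9.31 to 9.49 in RIP-Cre and 9.25 to 9.45 in wt arrays. Kdm5a lay at 9.07 to 9.39 in double knockout, 9.39 to 9.50 in Men1 knockout and 8.95 to 9.18 in Rbp2 knockout arrays, against 9.09 to 9.37 in RIP-Cre and 9.11 to 9.42 in wt arrays, so its probe set did not mark the deletion; whether it lies in the deleted part is not known here. The mean of 10 beta cell markers was above 11.6 on every array, with 12.38 to 12.56 in double knockout, 12.55 to 12.63 in Men1 knockout, 12.26 to 12.45 in Rbp2 knockout, 11.62 to 12.19 in RIP-Cre and 11.84 to 12.18 in wt arrays. The array median was 7.88 to 7.95 in double knockout, 7.86 to 7.87 in Men1 knockout and 7.82 to 7.98 in Rbp2 knockout, against 7.97 to 8.16 in RIP-Cre and 7.99 to 8.10 in wt arrays. This shift changed with intensity, from negative to positive. Between Men1 knockout and RIP-Cre the median log2 difference was -0.43 in the lowest of 10 intensity classes of all genes and 0.20 in the highest. Values after cyclic loess normalization of the arrays are therefore set beside the differences of the 8 genes from RIP-Cre, and for other iron genes wherever they end a call or differ by more than 1.5 times. With the array median as a covariate, the Men1 or double knockout cannot be told apart from the median, because the ranges of the medians do not overlap with RIP-Cre.

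Tfrc lies on chromosome 16 from 32608896 to 32632794 (GRCm38.p6, plus strand), and its promoter is shown because Tfrc is the member on which most of the differences turn. The RefSeq promoter table for that build held windows for 5 of the 8 genes, 7 windows in all. The first line is the 250 bases before the first annotated start of Tfrc, chr16:32608646-32608895, with a CCAAT box in capitals 124 bases upstream of the start. The second is chr16:32608892-32608916, which begins just before that start and lies upstream of another annotated start 226 bases further on. Its capitals mark ACGTG, the core of a hypoxia response element, and TGACGT, part of a cyclic AMP response element.
Tfrc upstream of the first start: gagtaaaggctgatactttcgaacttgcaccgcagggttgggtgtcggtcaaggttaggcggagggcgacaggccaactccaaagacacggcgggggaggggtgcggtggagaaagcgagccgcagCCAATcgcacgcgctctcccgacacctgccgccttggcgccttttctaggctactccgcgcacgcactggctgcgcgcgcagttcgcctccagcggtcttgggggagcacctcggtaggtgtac
Tfrc stretch between the starts: gtACGTGcggaaggaagTGACGTag
Searched on both strands, ACGTG was in 16.6% of the 32851 mouse windows of the same length and TGACGT in 6.47%. Among the windows of the 8 genes each was found in 1, that of Tfrc. CCAAT was in 33.8% of all windows and in 3 of the 7, of Tfrc, Fth1 and Ftl1. CACGTG, an E-box that can overlap ACGTG, was in 6.02% of all windows and in 0 of the 7. These are matches of letters in a window and say nothing of binding.

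Transferrin receptor 1, the Tfrc product, is the main gate for transferrin-bound iron. Its log2 level was 9.25, 9.46, 9.50 and 9.54 on the double knockout arrays and 9.34, 9.13 and 9.35 on the Men1 knockout arrays. It was 9.40, 7.49, 8.35 and 8.24 on the Rbp2 knockout arrays. It was 7.30, 8.07 and 7.91 on the RIP-Cre arrays and 7.76, 7.93 and 8.24 on the wt arrays. Every array that lacks menin in beta cells stood above every RIP-Cre and wt array, whereas the Rbp2 knockout arrays ran from the level of the controls up to that of the menin-deficient arrays. Against RIP-Cre alone, 14.2% of all genes were higher without overlap in the double and 18.7% in the Men1 knockout. The share against both controls together was not counted. One Rbp2 knockout array, number 1, sat inside the range of the double knockout.

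Relative to RIP-Cre, Tfrc was higher by 1.68 on the log2 scale in double knockout islets (SE 0.30, 95% interval 1.05 to 2.31), a 3.20-fold difference. In Men1 knockout islets it was higher by 1.51 (SE 0.32, interval 0.84 to 2.19), or 2.85-fold, and against wt by 1.30. In Rbp2 knockout islets the difference was 0.61 (SE 0.30, interval -0.02 to 1.24), and 0.27 without Rbp2 knockout array 1. Cyclic loess gave 1.74, 1.60 and 0.66 for the double, Men1 and Rbp2 knockout. With the array median as covariate the values were 1.24, 0.90 and 0.22, so the sign held and the sizes shrank. In bulk islets a larger share of beta cells and more RNA per beta cell cannot be told apart. Of 10 beta cell markers, 7 passed the limma threshold as higher in the double knockout, 7 in the Men1 knockout and 3 in the Rbp2 knockout. Of all genes 13.0%, 15.7% and 6.70% did so. These markers are bright, and in the highest of 10 intensity classes the median gene was itself higher by 0.21, 0.20 and 0.18 in that order. Counts of these markers after cyclic loess are not given here. The part of cell mixture in the Tfrc difference was not tested.

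Between the menin-deficient groups, Tfrc differed by 0.16 (double minus Men1 knockout, SE 0.30, interval -0.46 to 0.79), and the arrays overlapped. The double knockout was higher than the Rbp2 knockout by 1.07 (SE 0.28, interval 0.49 to 1.65). That value was 1.41 without Rbp2 knockout array 1 and 0.77 without Rbp2 knockout array 2, the lowest of its group. RIP-Cre differed from wt by -0.22 (SE 0.32).

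**Figure D1:**
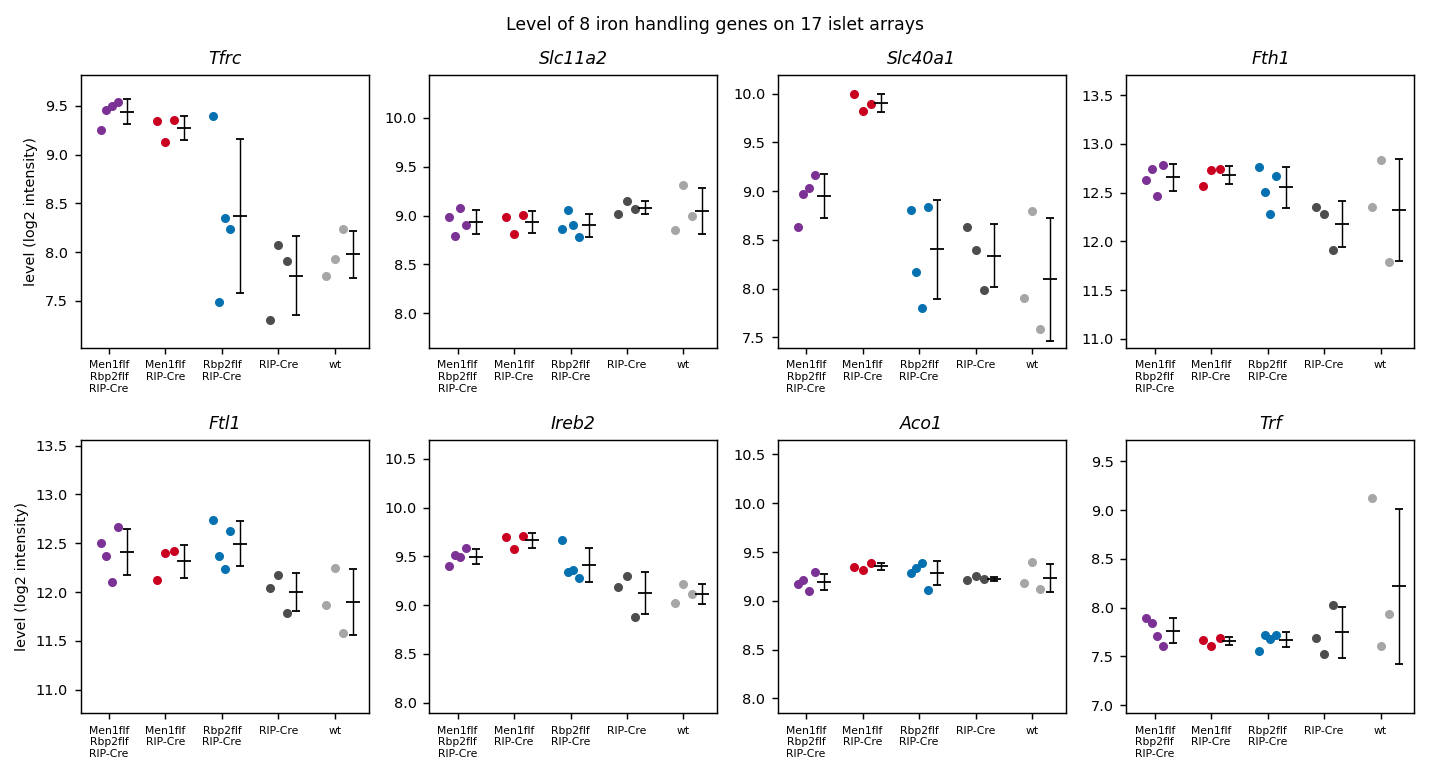
Log2 intensity of the 8 iron handling genes on each of 17 arrays (points), by genotype from double knockout at the left to wt at the right, with group mean and SD as bars; every panel spans the same number of log2 units. Tfrc and Slc40a1 show the widest ranges, 2.24 and 2.41, and Aco1 the narrowest, 0.30.

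Trf codes for transferrin itself, the iron carrier that binds the receptor, and lies on chromosome 9 from 103208876 to 103230286. Its level was 7.89, 7.84, 7.71 and 7.61 on the double knockout arrays and 7.67, 7.61 and 7.69 on the Men1 knockout arrays. It was 7.56, 7.72, 7.68 and 7.72 on the Rbp2 knockout arrays. It was 7.69, 7.52 and 8.03 on the RIP-Cre arrays and 9.12, 7.61 and 7.93 on the wt arrays. All groups overlapped, and wt array 1 stood far above the other 16. The differences from RIP-Cre were 0.02 in the double knockout (interval -0.48 to 0.52), -0.09 in the Men1 knockout (interval -0.62 to 0.45) and -0.08 in the Rbp2 knockout (interval -0.58 to 0.42), and after cyclic loess they were 0.17, 0.14 and 0.06. RIP-Cre was lower than wt by 0.47 with all arrays, and the difference was -0.02 without wt array 1. That array also had the highest lymphocyte marker mean of all arrays, 8.23, and the highest mesenchymal marker mean, 8.56. In each of the 5 groups, no array had more Trf than the array with the highest mean of 12 macrophage markers, with a tie of 2 arrays in the Rbp2 knockout. The within-group Pearson r over 17 arrays was 0.79 with the macrophage mean. It was also 0.79 with the lymphocyte, 0.74 with the mesenchymal, 0.60 with the adipocyte and 0.53 with the Schwann cell mean, and -0.37 with the beta cell mean. Among wt arrays, array 1 had the highest of each of these means except the beta cell mean. The r values lean on that array, and r without it was not computed. These are descriptions, and the part of these cells in the Trf level was not tested.

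Slc11a2, on chromosome 15 from 100387898 to 100424209, codes for DMT1, which moves ferrous iron out of endosomes into the cytosol. Its level was 8.98, 8.79, 9.08 and 8.90 on the double knockout arrays and 8.98, 8.81 and 9.01 on the Men1 knockout arrays. It was 8.86, 9.06, 8.90 and 8.78 on the Rbp2 knockout arrays. It was 9.02, 9.15 and 9.07 on the RIP-Cre arrays and 8.85, 9.31 and 8.99 on the wt arrays. The wt arrays alone spanned nearly the whole range of 0.53 over all arrays. Slc11a2 differed from RIP-Cre by -0.14 in the double knockout (SE 0.11), by -0.15 in the Men1 knockout (SE 0.12) and by -0.18 in the Rbp2 knockout (SE 0.11), and all 3 intervals included 0. After cyclic loess the values were -0.13, -0.12 and -0.18 in the same order. Next to the 1.68 of Tfrc in the double knockout, the carrier that takes up iron from the same endosomes stood at -0.14.

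Slc40a1, on chromosome 1 from 45908070 to 45926532, codes for the exporter ferroportin. Its level was 8.63, 8.97, 9.03 and 9.17 on the double knockout arrays and 10, 9.82 and 9.89 on the Men1 knockout arrays. It was 8.81, 8.17, 7.80 and 8.84 on the Rbp2 knockout arrays. It was 8.63, 8.40 and 7.99 on the RIP-Cre arrays and 7.90, 8.80 and 7.59 on the wt arrays. The 3 Men1 knockout arrays stood above all 14 others, with a spread of 0.09 (SD), while the double knockout overlapped the top of the Rbp2 knockout, RIP-Cre and wt groups. Above RIP-Cre alone, the Men1 knockout arrays lay without overlap for 18.7% of all genes. Slc40a1 thus separated the menin-deficient groups that Tfrc did not separate.

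Relative to RIP-Cre, Slc40a1 was higher by 1.56 in the Men1 knockout (SE 0.29, interval 0.95 to 2.17), or 2.96-fold, and against wt by 1.81. In the double knockout the difference was 0.61 (SE 0.27, interval 0.04 to 1.18), and in the Rbp2 knockout 0.07 (SE 0.27, interval -0.51 to 0.64). The double knockout was lower than the Men1 knockout by 0.95 (SE 0.27, interval -1.52 to -0.38), without overlap of the arrays. In that comparison 2 of the 8 genes, Slc40a1 and Aco1, were lower without overlap, as were 6.15% of all genes. The interaction, which is the double minus Men1 knockout difference less the Rbp2 knockout minus RIP-Cre difference, was -1.02 (SE 0.38, interval -1.83 to -0.21). After cyclic loess the values were 1.63 for the Men1 knockout, 0.65 for the double knockout, 0.09 for the Rbp2 knockout, -0.97 for double against Men1 knockout and -1.07 for the interaction. With the array median as covariate these values were 0.74 for the Men1 knockout, 0.02 for the double knockout, -0.46 for the Rbp2 knockout, -0.72 for double against Men1 knockout and -0.26 for the interaction.

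Macrophages recycle iron and are known for high ferroportin, so their markers are set beside it. The mean of the 12 macrophage markers was 7.74 to 8.06 in double knockout, 7.66 to 7.93 in Men1 knockout, 7.56 to 7.63 in Rbp2 knockout, 7.55 to 7.63 in RIP-Cre and 7.58 to 8.05 in wt arrays. Between double and Men1 knockout 0 of the 12 passed the limma threshold, beside 1.67% of all genes. At a limma unadjusted p under 0.05 it was also 0 of the 12, beside 2871 of all 19938 genes. So few markers at such shares decide nothing. Against RIP-Cre, 4 macrophage markers were higher and 2 lower in the Men1 knockout, beside 15.7% and 37.8% of all genes. In the double knockout 4 were higher and 1 lower, beside 13.0% and 20.6% of all genes. The part of macrophages in the Slc40a1 differences was not tested.

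**Figure D2:**
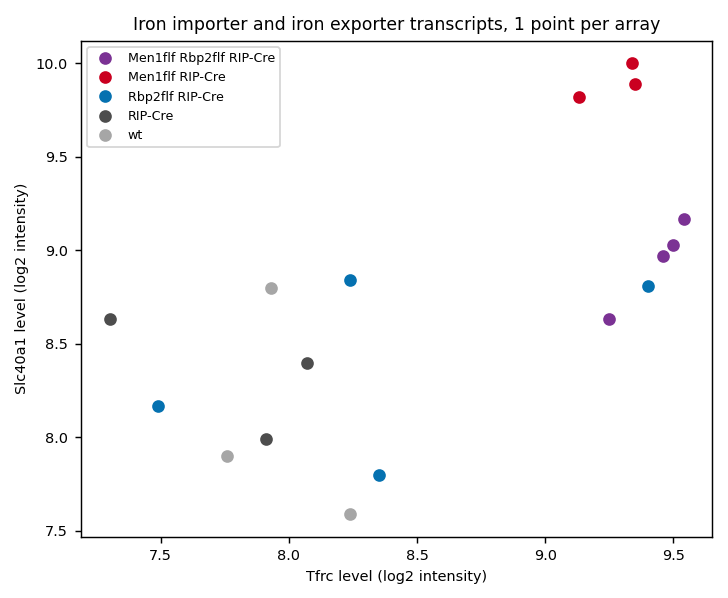
Level of Slc40a1 against that of Tfrc (both log2 intensity), 1 point per array, coloured by genotype. The double knockout and Men1 knockout arrays share the high end of Tfrc, from 9.13 to 9.54, but the Men1 knockout arrays lie at 9.82 to 10 for Slc40a1 and the double knockout arrays at 8.63 to 9.17.

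Ferritin is a shell of heavy and light chains, coded by Fth1 on chromosome 19 from 9980600 to 9985111 and Ftl1 on chromosome 7 from 45457944 to 45459886. The heavy chain oxidises iron for storage. Fth1 was 12.63, 12.74, 12.47 and 12.78 on the double knockout arrays and 12.57, 12.73 and 12.74 on the Men1 knockout arrays. It was 12.76, 12.51, 12.28 and 12.67 on the Rbp2 knockout arrays. It was 12.35, 12.28 and 11.91 on the RIP-Cre arrays and 12.35, 12.83 and 11.79 on the wt arrays. The double and Men1 knockout arrays lay above all RIP-Cre arrays, as they did for 14.2% and 18.7% of all genes. The 3 wt arrays alone, however, spanned the full range of 1.04 over all arrays.

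Ftl1, whose product helps the mineral core to form, was 12.50, 12.37, 12.10 and 12.67 on the double knockout arrays and 12.12, 12.40 and 12.42 on the Men1 knockout arrays. It was 12.74, 12.37, 12.24 and 12.63 on the Rbp2 knockout arrays. It was 12.04, 12.17 and 11.79 on the RIP-Cre arrays and 11.87, 12.25 and 11.58 on the wt arrays. The Rbp2 knockout arrays stood above all RIP-Cre arrays, as they did for 11.6% of all genes, and the double and Men1 knockout arrays overlapped RIP-Cre. Ftl1 has 4 further probe sets that the platform table assigns to Ftl1 together with other genes. On those the difference from RIP-Cre was 0.37 to 0.41 in the double knockout, 0.29 to 0.34 in the Men1 knockout and 0.48 to 0.51 in the Rbp2 knockout, close to the values of the probe set that names Ftl1 alone.

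Relative to RIP-Cre, Fth1 was higher by 0.48 in the double knockout (SE 0.19), 0.50 in the Men1 knockout (SE 0.20) and 0.38 in the Rbp2 knockout (SE 0.19). Ftl1 was higher by 0.41 (SE 0.17), 0.31 (SE 0.18) and 0.50 (SE 0.17) in the same order. Both belong to the highest of the 10 intensity classes, where the median gene differed by 0.21, 0.20 and 0.18 in the double, Men1 and Rbp2 knockout. After cyclic loess the Fth1 differences were 0.10 in the double knockout, 0.15 in the Men1 knockout and 0.04 in the Rbp2 knockout, and those of Ftl1 were 0.06, -0.02 and 0.17. The ferritin differences thus depended on how the arrays were scaled, and with the array median as covariate Fth1 in the Men1 knockout was at -0.05.

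The ferritins also moved against the markers of exocrine tissue. In each of the 5 groups, the array with the highest mean of 7 acinar markers was the array with the lowest Fth1 and the lowest Ftl1. Within groups the Pearson r with the acinar mean over 17 arrays was -0.68 for Fth1 and -0.74 for Ftl1, and with the beta cell mean 0.75 and 0.66. The acinar mean ran from 8.62 to 11.16 in double knockout, 8.77 to 11.05 in Men1 knockout, 8.52 to 9.76 in Rbp2 knockout, 8.05 to 10.98 in RIP-Cre and 9.12 to 10.22 in wt arrays. This pattern was noticed in the values and is a description, with the arrays sharing their scaling; the part of exocrine tissue in the ferritin differences was not tested.

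Ireb2, on chromosome 9 from 54862658 to 54912534, codes for iron regulatory protein 2, which is broken down when iron is plentiful. Its level was 9.40, 9.51, 9.49 and 9.59 on the double knockout arrays and 9.70, 9.58 and 9.71 on the Men1 knockout arrays. It was 9.67, 9.34, 9.36 and 9.28 on the Rbp2 knockout arrays. It was 9.19, 9.30 and 8.88 on the RIP-Cre arrays and 9.02, 9.22 and 9.11 on the wt arrays. As for Tfrc, all menin-deficient arrays stood above all control arrays, and Rbp2 knockout array 1 was the highest of its group. Against RIP-Cre alone, such separation held for 14.2% of all genes in the double and 18.7% in the Men1 knockout. Relative to RIP-Cre, Ireb2 was higher by 0.37 in the double knockout (SE 0.11), 0.54 in the Men1 knockout (SE 0.12) and 0.29 in the Rbp2 knockout (SE 0.11). Cyclic loess gave 0.33 in the double, 0.50 in the Men1 and 0.25 in the Rbp2 knockout, and the array median as covariate gave 0.09, 0.14 and 0.03. Within groups Ireb2 moved with the beta cell marker mean (Pearson r 0.82 over 17 arrays) and against the means of the 2 measured Schwann cell markers (-0.90) and the 2 measured red blood cell markers (-0.85), and Tfrc against the mean of 8 endothelial markers (-0.83). The Schwann cell mean was 6.90 to 7.03 in double knockout, 6.71 to 6.77 in Men1 knockout and 6.91 to 7.52 in Rbp2 knockout arrays, against 7.41 to 8.02 in RIP-Cre and 7.25 to 7.58 in wt arrays. The endothelial mean was 9.34 to 9.47 in double knockout, 9.40 to 9.56 in Men1 knockout and 9.59 to 9.89 in Rbp2 knockout arrays, against 9.44 to 9.62 in RIP-Cre and 9.43 to 9.60 in wt arrays. These are descriptions over arrays that share their scaling, and the part of these cells in the differences of Ireb2 and Tfrc was not tested.

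Aco1, on chromosome 4 from 40143265 to 40199009, codes for iron regulatory protein 1, which is a cytosolic aconitase when it holds an iron-sulfur cluster. Its level was 9.17, 9.21, 9.10 and 9.30 on the double knockout arrays and 9.35, 9.32 and 9.39 on the Men1 knockout arrays. It was 9.29, 9.34, 9.39 and 9.11 on the Rbp2 knockout arrays. It was 9.21, 9.25 and 9.22 on the RIP-Cre arrays and 9.18, 9.40 and 9.12 on the wt arrays. The genotypes lay within 0.16 of each other in their means, and the differences from RIP-Cre were -0.03 in the double knockout (SE 0.09), 0.13 in the Men1 knockout (SE 0.09) and 0.06 in the Rbp2 knockout (SE 0.09). After cyclic loess they were -0.06, 0.11 and 0.03. The iron regulatory proteins thus differed in pattern, with Ireb2 ranging over 0.83 and Aco1 over 0.30.

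**Figure D3:**
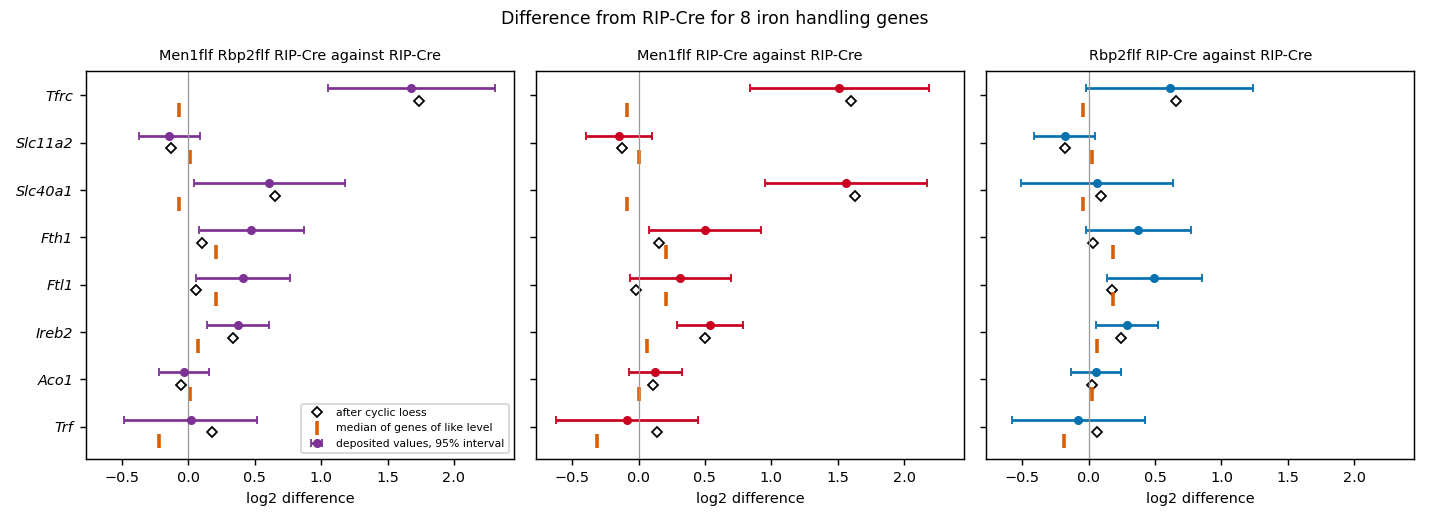
Log2 difference from RIP-Cre of the 8 genes in double knockout, Men1 knockout and Rbp2 knockout islets, with 95% intervals (bars), the value after cyclic loess (diamonds) and the median of all genes in the same intensity class (ticks). Tfrc in the double and Men1 knockout and Slc40a1 in the Men1 knockout lie between 1.51 and 1.68; the loess values of Fth1 and Ftl1 lie near 0.

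Set against all genes, the limma threshold used throughout (Benjamini-Hochberg adjusted p under 0.05) was passed in the double knockout against RIP-Cre by Tfrc and Ireb2, 2 of the 8, both higher, where 13.0% of all genes were higher and 20.6% lower. In the Men1 knockout it was passed by Tfrc, Slc40a1, Ireb2 and Fth1, 4 of the 8, all higher, where 15.7% of all genes were higher and 37.8% lower. In the Rbp2 knockout it was passed by 0 of the 8, where 6.70% of all genes were higher and 6.70% lower. There 2 of the 8 had a limma unadjusted p under 0.05, beside 7643 of all 19938 genes. Nothing is read from these counts, since the genes were chosen with such results known. With the array median as covariate 0 of the 8 passed in any of these 3 comparisons. Fth1 no longer passed in the Men1 knockout after cyclic loess or quantile normalization, with wt as control, over all probe sets, or without any of RIP-Cre arrays 2 and 3 and the Men1 knockout arrays. Ireb2 no longer passed in the double knockout without RIP-Cre array 3 or double knockout array 4. Some settings added calls instead. In the double knockout 4 of the 8 passed with wt as control and 5 with pooled controls. In the Men1 knockout 5 passed with pooled controls. In the Rbp2 knockout Ftl1 passed with wt as control, and Ftl1 and Ireb2 with pooled controls. The shares of all genes in these fits are not given here.

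By the same threshold 0 of the 8 passed for double against Men1 knockout (1.67% of all genes), 0 for double against Rbp2 knockout (1.20%), 0 for RIP-Cre against wt (0%) and 0 for the interaction (3.39%). At an unadjusted p under 0.05 these limma counts were 1, 2, 0 and 2, beside 2871, 2309, 552 and 7318 of all 19938 genes. Some settings added calls here too. Slc40a1 passed for double against Men1 knockout with only the groups compared. Tfrc passed for double against Rbp2 knockout with the array median as covariate or without Rbp2 knockout array 1. For the interaction, Ireb2 and Slc40a1 passed with pooled controls, and Ireb2 without RIP-Cre array 2. The median difference over the 8 genes was 0.39 in the double knockout, 0.41 in the Men1 knockout and 0.18 in the Rbp2 knockout, beside medians over all genes of -0.15, -0.23 and -0.13. After cyclic loess the medians of the 8 were 0.14, 0.14 and 0.08. All double knockout arrays lay above all RIP-Cre arrays for Tfrc, Fth1 and Ireb2, as they did for 14.2% of all genes. All Men1 knockout arrays did so for Tfrc, Slc40a1, Fth1, Ireb2 and Aco1 (18.7% of all genes) and lay below RIP-Cre for Slc11a2 (44.8%), and all Rbp2 knockout arrays lay above RIP-Cre for Ftl1 (11.6%).

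The genes whose levels were most like that of Tfrc over the 17 arrays were Cpm (Pearson r 0.92), Tmem97, Cks2, Mrpl35, Vps25, Atp13a3, Rhoq and Abhd15 (0.89 each). Within groups Cpm kept an r of 0.87, Cks2 0.78 and Atp13a3 0.66, and the other 5 lay between 0.50 and 0.59. On Rbp2 knockout array 1 each of these genes stood above its Rbp2 knockout mean. They were picked for following Tfrc over these same arrays, and Tfrc was itself high on that array, so nothing is read from this. Cks2, a partner of cyclin-dependent kinases, was at 8.05 on Rbp2 knockout array 1. Its group means were 7.41 in the Rbp2 knockout, 7.74 in the double knockout, 7.61 in the Men1 knockout and 6.88 in RIP-Cre. An r above 0.8 was shared by 361 genes, 1.81% of all. Of the 8 iron genes, Ireb2 was the most like Tfrc (r 0.80, within groups 0.53), followed by Slc40a1 (0.65, within groups 0.18), Fth1 (0.51) and Ftl1 (0.49). Aco1 (0.05), Trf (-0.30) and Slc11a2 (-0.35) did not follow Tfrc. These correlations describe arrays that share their group differences and scaling.

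Around these 8 genes, 89 further genes of iron, iron-sulfur and heme handling were taken in 8 lists, of which 81 were measured. In the double knockout 20 rose and 10 fell relative to RIP-Cre by the limma threshold (24.7% and 12.3%), beside 13.0% and 20.6% of all genes. In the Men1 knockout 18 rose and 23 fell (22.2% and 28.4%), beside 15.7% and 37.8% of all genes, and in the Rbp2 knockout 13 rose and 1 fell (16.0% and 1.23%), beside 6.70% and 6.70%. Those that rose were brighter than those that fell, with a median level of 9.26 against 7.67 in the double knockout and 9.26 against 7.41 in the Men1 knockout, in the direction of the array-wide shift. After cyclic loess 16 rose and 4 fell in the double knockout (all genes 13.4% and 12.3%), 17 rose and 16 fell in the Men1 knockout (all genes 17.6% and 18.4%) and 11 rose and 0 fell in the Rbp2 knockout (all genes 5.52% and 3.87%). With the array median as covariate 1, 2 and 1 rose and 0 fell, beside 0.863%, 1.06% and 0.160% of all genes that rose. Without RIP-Cre array 3 the totals called were 7, 27 and 2, against 30, 41 and 14 with it. The counts of single lists below stand against the same shares of all genes. With 1 array left out at a time, a number of the calls named below were lost. In the Rbp2 knockout Hspa9 and Ciao3 stayed called (highest limma adjusted p 0.046 and 0.026). Ncoa4 (0.11), Snx3 (0.13), Pcbp2 (0.17), Fbxl5 (0.18), Epas1, Iscu, Nubp2, Urod, Hmox2 and Hp did not. Calls lost in the double knockout included Cdc42bpa, Steap2, Glrx5, Ciao2a, Tmem14c and Cpox. Those lost in the Men1 knockout included Fdx1, Cpox and Hpx.

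Of 4 genes of ferritin loading and turnover, 2 rose and 0 fell in the double knockout (all genes 13.0% and 20.6%). In the Men1 knockout 2 rose and 1 fell (all genes 15.7% and 37.8%), and 2 rose in the Rbp2 knockout (all genes 6.70% and 6.70%), 1 of them after cyclic loess. Ncoa4, the receptor that delivers ferritin to lysosomes and so frees its iron, was 9.13, 9.69, 9.27 and 9.74 on double knockout, 9.43, 9.29 and 9.49 on Men1 knockout and 9.58, 9.35, 9.31 and 9.29 on Rbp2 knockout arrays, against 8.73, 8.84 and 8.52 on RIP-Cre and 8.73, 9.23 and 8.61 on wt arrays. Its log2 difference was 0.76, 0.71 and 0.69 in that order (limma adjusted p 0.0046, 0.0045 and 0.021). The knockout arrays lay above RIP-Cre without overlap, as for 14.2%, 18.7% and 11.6% of all genes, while 1 wt array reached into the double knockout. Pcbp2, an iron chaperone, rose by 0.68, 0.73 and 0.51 (limma adjusted p 0.0046, 0.0021 and 0.034). After cyclic loess these values were 0.35, 0.42 and 0.21, the last no longer called (limma adjusted p 0.117). Pcbp1, the other iron chaperone of the list, differed by 0.20, -0.08 and 0.34 and was not called, but after cyclic loess it fell in the Men1 knockout by 0.33. Ftmt, mitochondrial ferritin, fell in the Men1 knockout by 0.63.

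In the uptake list, 2 of 15 measured genes rose and 3 fell in the double knockout (all genes 13.0% and 20.6%). In the Men1 knockout 1 rose and 4 fell (all genes 15.7% and 37.8%), and 1 rose in the Rbp2 knockout (all genes 6.70% and 6.70%). After cyclic loess these were 1 and 0, 1 and 2, and 1 and 0. Snx3, which returns internalised transferrin receptor to the cell surface, rose by 0.40, 0.56 and 0.49 in that order, and the double knockout value was 0.28 and no longer called after cyclic loess. Steap2, an endosomal metalloreductase, rose in the double knockout by 0.61. The ferric reductase Cybrd1 fell by 0.32 in the double and 0.62 in the Men1 knockout, and Steap1 by 0.40 and 0.59. After cyclic loess Cybrd1 stood at -0.11 and -0.31 and Steap1 at -0.21 and -0.30, of which the double knockout values were no longer called.

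In the list of export and systemic iron control, 0 of 11 genes rose and 3 fell in the double knockout, where 20.6% of all genes fell. In the Men1 knockout 0 rose and 7 fell, where 37.8% of all genes fell. In the Rbp2 knockout 0 of 11 changed, where 6.70% of all genes rose and 6.70% fell. By limma 2 of the 11 had an unadjusted p under 0.05, beside 7643 of all 19938 genes. After cyclic loess 1 fell in the double and 4 in the Men1 knockout, and with the array median as covariate 0 fell in either. Hamp2, a mouse hepcidin gene, fell by 0.74 in the Men1 knockout. Hjv, a co-receptor of hepcidin induction, fell by 0.48 in the double and 0.63 in the Men1 knockout, with -0.27, no longer called, and -0.31 after cyclic loess. Erfe, the erythroid hormone that lowers hepcidin, fell by 0.38 in the double and 0.49 in the Men1 knockout, and its double knockout call was lost after cyclic loess (-0.30).

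Fbxl5 codes for the iron-sensing part of the ubiquitin ligase that removes iron regulatory protein 2. It was 8.48, 8.72, 8.57 and 8.72 on double knockout, 8.85, 8.88 and 8.86 on Men1 knockout and 8.66, 8.51, 8.33 and 8.51 on Rbp2 knockout arrays, against 8.26, 8.24 and 8.12 on RIP-Cre and 8.30, 8.45 and 8.36 on wt arrays. Fbxl5 rose by 0.42, 0.66 and 0.30 in that order (limma adjusted p 0.0050, 0.00025 and 0.042). The last of these calls was lost with 1 array left out at a time (highest limma adjusted p 0.18). Thus Ireb2 and the gene for the ligase part that removes its product were both highest in the Men1 knockout. The interaction for Fbxl5 was -0.54 (limma adjusted p 0.042): the double knockout fell short of the sum of the single knockouts. With 1 array left out at a time, that limma adjusted p reached 0.118. Among transcripts with an iron-responsive element, Cdc42bpa rose in the double knockout by 0.52 and in the Men1 knockout by 0.57. Epas1, coding for hypoxia-inducible factor 2 alpha, rose in the Rbp2 knockout by 0.39, but stood at 0.22 and was no longer called after cyclic loess. Alas2, the erythroid first enzyme of heme synthesis, fell in the Men1 knockout by 0.43, where the median gene of its intensity class lay at -0.37; after cyclic loess it stood at -0.15 and was no longer called. Of 6 red blood cell markers 2 were measured, of which 1 fell in the Men1 knockout, where 37.8% of all genes fell. The part of blood cells was not tested.

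For mitochondrial iron and iron-sulfur cluster assembly, 6 of 15 measured genes rose and 2 fell in the double knockout (all genes 13.0% and 20.6%). In the Men1 knockout 5 rose and 4 fell (all genes 15.7% and 37.8%), and 3 rose in the Rbp2 knockout (all genes 6.70% and 6.70%). Glrx5, which passes clusters on, rose by 0.67 in the double, 0.64 in the Men1 and 0.58 in the Rbp2 knockout. Hspa9, the chaperone of cluster transfer, rose by 0.59, 0.54 and 0.65 (0.38, 0.34 and 0.45 after cyclic loess). Iscu, the scaffold, rose by 0.60 in the Rbp2 knockout (0.37 after cyclic loess). In the Men1 knockout it stood at -0.23, not called, and after cyclic loess it fell by 0.48. Isca2 rose by 0.43 in the double and 0.61 in the Men1 knockout. Hscb, a co-chaperone, fell by 0.52 in the Men1 knockout (-0.29 after cyclic loess). Iba57 fell by 0.55 in the double and 0.37 in the Men1 knockout, with -0.36 and, no longer called, -0.09 after cyclic loess. The ferredoxin Fdx1 fell by 0.34 and 0.41, and both calls were lost after cyclic loess (-0.19 and -0.20).

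Between double and Men1 knockout 2 of the 81 measured list genes were called, beside 1.67% of all genes. Both were in the list of cytosolic iron-sulfur assembly. Ciao3 was 9.39 to 9.42 on double knockout, 8.55 to 8.67 on Men1 knockout and 9.32 to 9.46 on Rbp2 knockout arrays, against 8.87 to 8.93 on RIP-Cre and 8.76 to 8.97 on wt arrays. Ciao3 rose by 0.49 in the double knockout, fell by 0.30 in the Men1 knockout and rose by 0.46 in the Rbp2 knockout, and the double knockout was higher than the Men1 knockout by 0.79 (limma adjusted p 2.99e-05), at the level of the Rbp2 knockout.
Ciapin1, which hands electrons to this pathway, was 8.18 to 8.58 on double knockout, 8.87 to 9.09 on Men1 knockout and 8.39 to 8.87 on Rbp2 knockout arrays, against 8.19 to 8.45 on RIP-Cre arrays. It rose by 0.71 in the Men1 and by 0.43 in the Rbp2 knockout, and differed by 0.10 in the double knockout, not called. The double knockout was lower than the Men1 knockout by 0.61 (limma adjusted p 0.0136), and the interaction was -1.04 (limma adjusted p 0.015). With 1 array left out at a time, these limma adjusted p reached 0.106 and 0.059, so neither call held throughout. Of the same list, Ciao2a rose in the double knockout by 0.60 and in the Men1 knockout by 0.77, Nubp2 rose by 0.59 in the double, 0.63 in the Men1 and 0.54 in the Rbp2 knockout, and Ciao2b fell in the double knockout by 0.24 (-0.20 and no longer called after cyclic loess).

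In heme synthesis, 4 of 11 measured genes rose and 0 fell in the double knockout, where 13.0% of all genes rose and 20.6% fell. In the Men1 knockout 4 rose and 1 fell (all genes 15.7% and 37.8%), and 1 rose in the Rbp2 knockout (all genes 6.70% and 6.70%). Cpox, a late enzyme of the pathway, rose by 0.48 in the double and 0.46 in the Men1 knockout, and Tmem14c, a carrier of the heme precursor, by 0.36 and 0.53. Urod rose by 0.36 in the double, 0.36 in the Men1 and 0.34 in the Rbp2 knockout, and Alad, an early enzyme, fell by 0.41 in the Men1 knockout. Of 12 genes of heme breakdown and transport, beside the same shares of all genes, 1 rose and 1 fell in the double knockout, 1 rose and 4 fell in the Men1 knockout, and 1 rose and 1 fell in the Rbp2 knockout. After cyclic loess these were 0 and 0, 0 and 1, and 1 and 0. Heme oxygenase 2, Hmox2, rose by 0.27 in the double and 0.35 in the Rbp2 knockout, the first no longer called after cyclic loess (0.23). In the Men1 knockout the heme transporter Slc48a1 rose by 0.30 and the plasma heme binder Hpx fell by 0.52, and both calls were lost after cyclic loess (0.12 and -0.24), while Flvcr2 fell by 0.60 (-0.28 after cyclic loess). The haptoglobin receptor Cd163, a macrophage gene, fell by 0.47 in the double and 0.51 in the Men1 knockout, and haptoglobin, Hp, by 0.48 in the Men1 and 0.41 in the Rbp2 knockout. After cyclic loess Cd163 stood at -0.25 and -0.19 and Hp at -0.15 and -0.21, and none of these calls was kept.

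**Figure D4:**
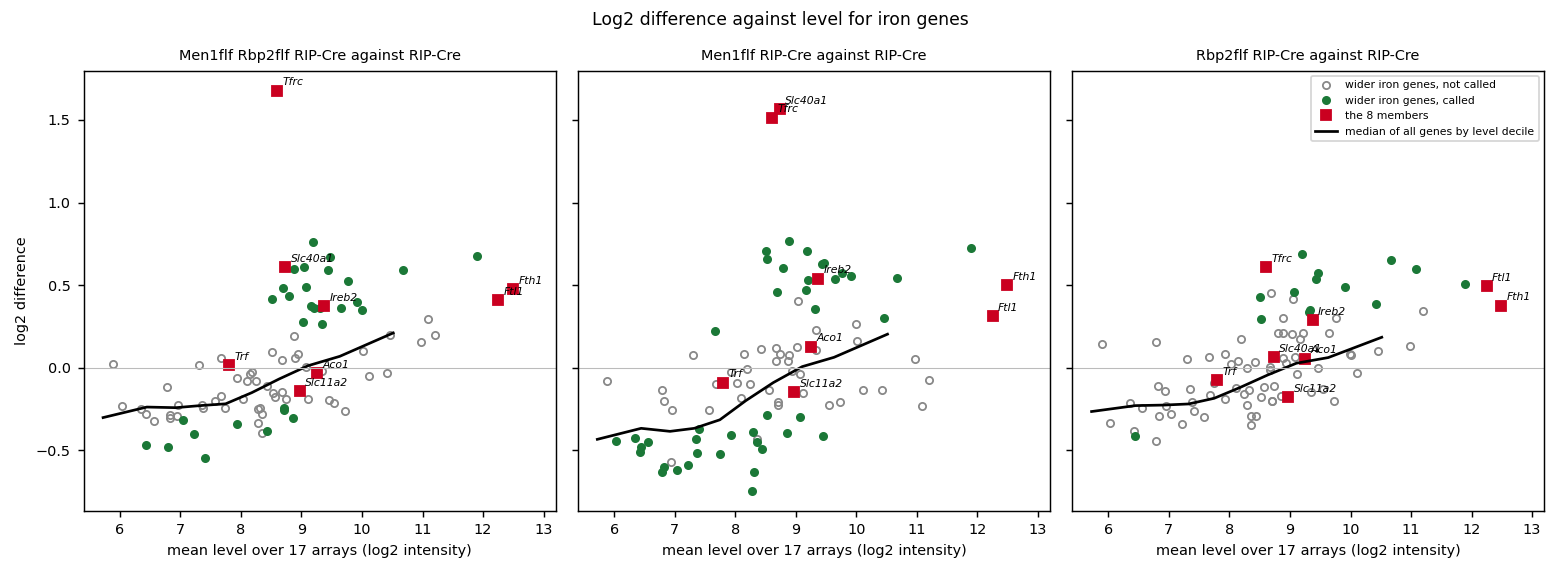
Log2 difference from RIP-Cre against mean level over 17 arrays for 81 further iron genes (filled where limma's adjusted p is under 0.05) and the 8 iron handling genes (squares), with the median of all genes in each of 10 intensity classes as a line. The line climbs with level in all 3 comparisons, from -0.43 to 0.20 for the Men1 knockout. Tfrc in the double and Men1 knockout and Slc40a1 in the Men1 knockout lie far above it.

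By limma 0 of the 81 differed between double and Rbp2 knockout (8 at an unadjusted p under 0.05) and 0 between RIP-Cre and wt (3 at an unadjusted p under 0.05). Over all genes double and Rbp2 knockout differed in 239 of 19938, with 2309 at an unadjusted p under 0.05. RIP-Cre and wt differed in 0 of 19938, with 552 at an unadjusted p under 0.05.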

How the data were processed

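The files held log2 intensities deposited by the authors, 1 per probe set and array, for 35512 probe sets on 17 arrays. Per the labels, fragmented single-stranded DNA was biotin-labelled; how background and scale were treated is not stated in them. Probe sets were joined to genes through the platform's gene table (21789 name 1 gene, 1621 several, 12102 unlisted). The brightest single-gene probe set stood for a gene, giving 19938 genes. RefSeq positions are of GRCm38.p6. No arrays were copies (smallest root mean square difference 0.357). Precision is limited by the number of arrays.

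Groups come from titles and genotype labels. One fit over the 5 groups was made with limma 3.58.1 (lmFit, eBayes) in R 4.3.3, over all genes, with Benjamini-Hochberg adjustment within each of 7 comparisons. The procedure was tested on simulated data. Alternatives were wt or pooled controls, only the groups compared, cyclic loess, quantile normalization, the array median as covariate, a filter at the 25th percentile, other probe set rules, trended robust variances, a replicate block and each array left out. Repeat numbers in the titles did not pair the arrays: same-numbered arrays had a median correlation of deviations of 0.01 over 31 pairs.

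The 8 members, the 8 iron lists, the 12 cell type marker lists and the tests were chosen with earlier results of these data known. Named list genes are, per comparison and list, up to 2 called genes with the highest and 2 with the lowest difference; the 8 genes most like Tfrc were taken by Pearson r. Of the 89 list genes, 81 are reported here.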

Additional observations from a re-analysis of the deposited data

Results flagged for a closer look

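On 3 occasions 1 array stood apart from the rest of its group, among 88 groups examined, where chance gives about 1 in 20. Cybrd1 was 6.79 on a double knockout array, with the others at 7.0 to 7.03. Steap1 was 7.22 on a double knockout array, with the others at 7.03 to 7.05. Cd163 was 6.09 on an Rbp2 knockout array, with the others at 6.40 to 6.44.

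For 2 of the 81 list genes the effect of Rbp2 loss differed between islets with and without menin by the interaction term in limma. Of all genes, 3.39% were called for that term. The interaction was -0.54 for Fbxl5 (adjusted p 0.042) and -1.04 for Ciapin1 (adjusted p 0.015). Neither passed with the array median as covariate, under which 0 of the 81 list genes did. Neither call held over all fits with 1 array left out, where the highest limma adjusted p was 0.118 for Fbxl5 and 0.059 for Ciapin1.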

How the results depend on the processing

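For the Men1 knockout, 41 of the 81 list genes were called, and 2 with the array median as covariate. For the Rbp2 knockout the count of 14 became 8 with wt as control, 30 with pooled controls, 6 with only the groups compared and 1 with the array median as covariate. For the double knockout the count of 30 became 47, 18 and 1 with pooled controls, only the groups compared and the covariate. For double against Rbp2 knockout the count of 0 became 1 with the replicate block, with cyclic loess and with quantile normalization. For the interaction the count of 2 became 10 with the replicate block, 4 with wt and 11 with pooled controls, 6 with only the groups compared, 0 with the covariate, 8 with the filter on low levels, 1 over all probe sets and 6 with trended robust variances. With the covariate in the Men1 knockout, 4 values that had passed the threshold changed sign: Fth1 to -0.050, Fdx1 to 0.011, Cpox to -0.069 and Hpx to 0.074. Ftl1 and Trf, which had not passed, also changed sign there (-0.19 and 0.50). The cause was not tested.

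Leaving out each array in turn gave 27 to 44 genes in the Men1 knockout, 2 to 18 in the Rbp2 knockout, 7 to 31 in the double knockout, 1 to 3 for double against Men1 knockout, 0 to 1 for double against Rbp2 knockout, 0 for RIP-Cre against wt and 0 to 10 for the interaction. The lowest counts against RIP-Cre came without RIP-Cre array 3. Counts also moved over 1.5 times without Rbp2 knockout array 1 (4) or 2 (7) in the Rbp2 knockout, and without double knockout array 2 (18) or 4 (17) in the double knockout. The interaction gave 10 without RIP-Cre array 2 and 0 without Men1 knockout array 1. Double against Men1 knockout gave 1 without Men1 knockout array 1 or 3, and double against Rbp2 knockout 1 without Rbp2 knockout array 1. The replicate numbers do not pair the arrays; 8 of 17 arrays correlated best with an array of their own number. Of 1008 recomputed differences of the 8 iron handling genes, 54 changed sign, all but that of Fth1 where the 95% interval as reported included 0, spread over 23 of the 56 differences. By the spread between replicates, 44 moved by more than 1 SD, beside that of Fth1. Part of the 1008 could not move, because each of the 8 genes has 1 probe set of its own. Fits with only the groups compared, the filter, other probe set rules or trended robust variances return the same 56 differences. Signal over background is not known for the deposited values.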
